A study of Elaeis oleifera with 12 samples.

Results

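The change between the pre-ripe (PR) and the ripe stage that the fruit abscission zones of 2 oil palms had in common was described here. It was taken as the average stage effect over all 12 libraries of the series with the palm as a covariate. Of the 20495 loci tested, 178 (0.869%) were called in this effect, which took an adjusted p below 0.01 together with a change of more than 1 on the log2 scale. Of the called loci, 106 changed by more than 1 on the log2 scale in the same direction in each palm, 61 of them higher and 45 lower in ripe tissue, and these are the shared loci below.

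The tissue was the abscission zone (AZ), where pedicel and mesocarp meet, cut out of the fruit base of the American oil palm, Elaeis oleifera. A non-shedding palm (NSd, individual 26-11) and a shedding one (Sd, individual 28-7) belonged to the same progeny. The 4 groups were ripe NSd, PR NSd, ripe Sd and PR Sd, each with 3 libraries that were sampled from 1 bunch of 1 palm. Ripeness was judged by the colour of the fruit and the place of the bunch on the palm, with the PR stage taken from another bunch of the same palm. All p-values below thus rest on how far repeated samplings of the same bunch differed. Those of the average stage effect rest also on how far the stage changes of the palms differed. The stage cannot be told apart from the bunch, nor the phenotype from the palm.

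In fleshy fruit, ripening brings together cell wall loosening, pigment and sugar changes, and, in many species, ethylene. Fruit is shed when cells of the AZ, a layer at the fruit base, come apart as enzymes such as polygalacturonases cut the pectin between them. The AZ of ripe fruit may hold both programmes, and the NSd palm ripens its fruit without shedding it. A change found in both palms is thus one seen also where fruit was not shed. Whether such a change belongs to ripening or to abscission was not tested. In whole pieces of tissue, fewer cells of a type and less RNA per cell cannot be told apart.

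The values are RPKM, which the authors computed per locus of the E. guineensis transcriptome, divided here by a factor per library (the median ratio over loci) and called rescaled RPKM. The libraries held 19090375 to 34004517 aligned reads, so that 1 read on a transcript of 1500 bases was worth 0.0196 to 0.0349 RPKM as deposited. Fold changes are ripe over PR on the scale log2(rescaled RPKM + 1), which understates the change of low loci, and come from limma. The PR NSd libraries stood apart. Across loci, their Pearson's r to libraries of the other groups was 0.897 to 0.941, against 0.941 to 0.98 among the other groups and 0.964 to 0.991 within groups. Loci for ribosomal RNA took 5.77 to 16.4% of the RPKM in PR NSd, against 0.496 to 7.03% in ripe NSd, 1.11 to 3.13% in ripe Sd and 2.12 to 2.61% in PR Sd, and the part of this in the results was not tested beyond leaving these loci and these libraries out. Without the rescaling, the median log2 fold change of all loci was 0.31 in NSd and 0.03 in Sd, and 0.17 on average.

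Of the 178 called loci, 104 (0.507% of those tested) were higher and 74 (0.361%) lower in ripe tissue. With RPKM as deposited the split was 145 higher and 47 lower, or 75.5% higher in place of 58.4%. At an unadjusted p under 0.05, 4887 loci passed. All 178 had the same sign in both palms. The fit with palm and stage as terms all but fixed this, since a difference between the palms' changes adds to its residual spread. Nothing is read from it. The shared rule took 0.298% of all loci as higher and 0.22% as lower in ripe tissue. The other 72 called loci stayed under the limit in a palm, 59 of them in Sd and 13 in NSd. The number of calls depended on every library. It fell most without PR NSd replicate 2, to 46 higher and 43 lower, and the shared loci fell to 35 higher without that library, to 36 higher without ripe NSd replicate 2, to 40 higher without PR NSd replicate 1, and to 28 lower without ripe NSd replicate 1. In each of the 12 fits without 1 library, 60 of the 106 shared loci (31 higher and 29 lower) were still called. Without the 3 PR NSd libraries, where the stage effect rests on the Sd palm alone, 149 loci were called higher and 95 lower, and 28 of the 61 and 28 of the 45 shared loci were among them.

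**Figure D1:**
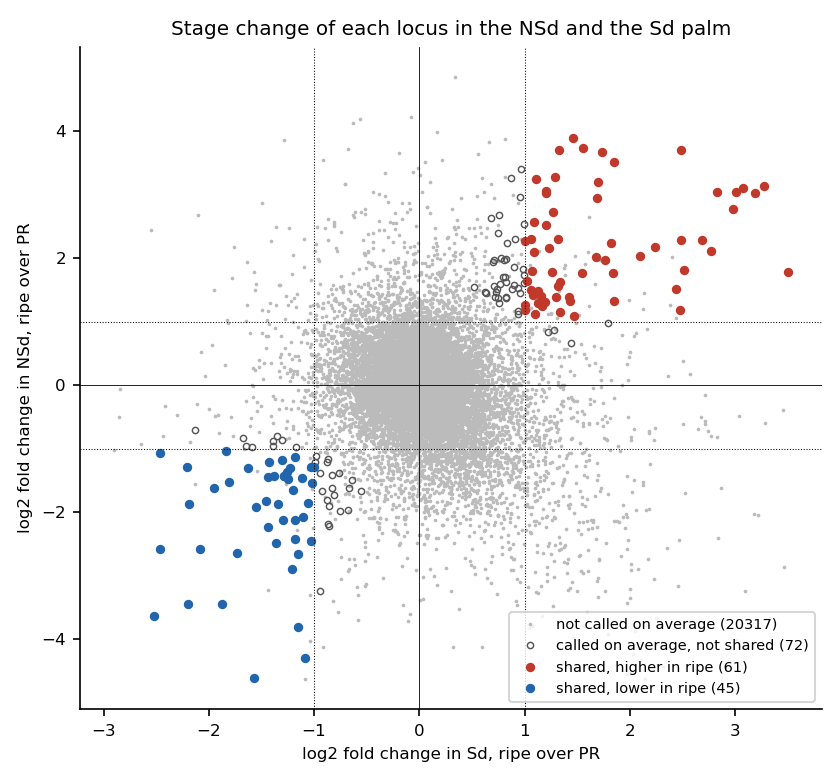
Log2 fold change of each of the 20495 loci, ripe over PR, in the Sd palm (horizontal axis) and in the NSd palm (vertical axis). Dotted lines mark 1 and -1, the 61 shared loci that were higher in ripe tissue lie at the top right and the 45 that were lower at the bottom left, and the 72 open circles were called on average but not shared.

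Most of the loci called in a palm were not called the same way in the other. In NSd alone 854 loci (4.17%) were higher and 1126 (5.49%) lower in ripe tissue, and in Sd alone 148 (0.722%) and 95 (0.464%). The stage contrasts of the palms share no library, so the loci called in a palm were followed in the other. Both were tested against a spread pooled over all groups. A locus with a small spread was thus more easily called in both palms, in the same or the opposite direction. Of the 148 loci higher in ripe Sd, 27 (18.2%) were also higher in ripe NSd, against 4.17% of all loci, but 51 (34.5%) were lower there, against 5.49% of all loci. Of the 95 loci lower in ripe Sd, 25 (26.3%) were lower in ripe NSd and 14 (14.7%) higher. Of the loci that changed in NSd, 27 of 854 (3.16%) were also higher and 25 of 1126 (2.22%) also lower in ripe Sd. Across all loci the changes of the palms had a Pearson's r of -0.156, a description over loci that are not independent of each other.

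The share that recurred moved with single Sd libraries. Without PR Sd replicate 1, PR Sd replicate 2, ripe Sd replicate 2 or ripe Sd replicate 3, only 32, 21, 25 and 24 loci were called higher in ripe Sd, and 56.3%, 66.7%, 64% and 62.5% of them were also higher in ripe NSd. Without PR Sd replicate 3, 295 loci were called higher in ripe Sd, of which 10.2% were also higher and 53.6% lower in ripe NSd. The 27 and 25 loci called the same way in each palm on its own were all among the shared loci.

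**Figure D2:**
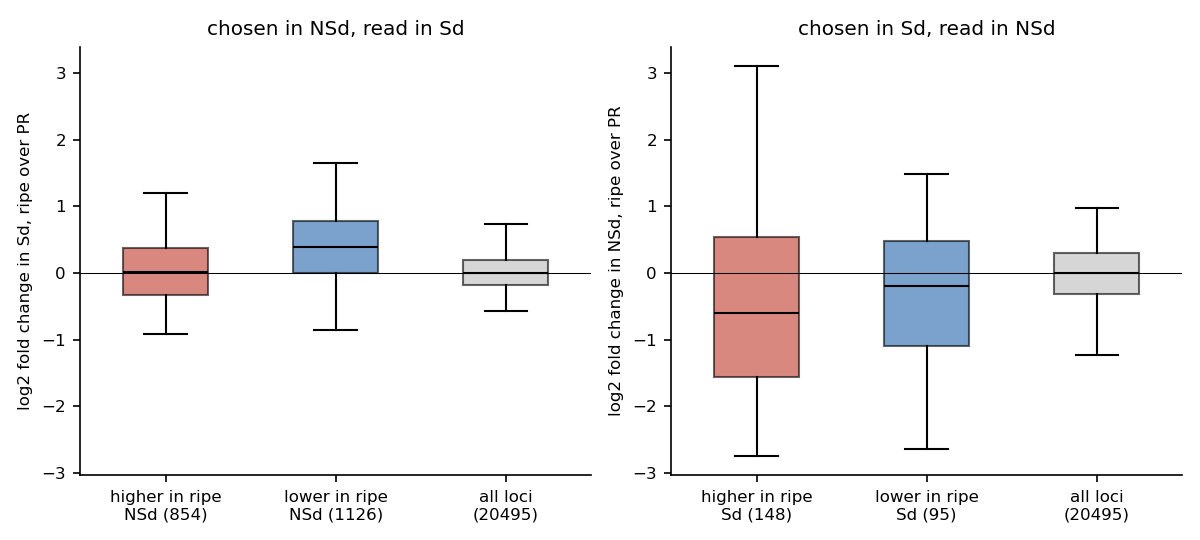
Log2 fold change, ripe over PR, in the palm that was not used to choose the loci. Boxes give the median and quartiles and whiskers the central 90% of the loci named under each box. Loci higher in ripe Sd had a median of -0.60 in NSd, and loci lower in ripe NSd a median of 0.39 in Sd, against medians near 0 for all loci.

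BURP domain proteins, which plants secrete to the cell wall or vacuole, held the largest rise of all loci tested and 4 of the 10 largest. BURP domain-containing protein 3-like (LOC105036039) stood at 1084, 788 and 937 rescaled RPKM in ripe NSd, against 147, 85.3 and 91.9 in PR NSd. In the Sd palm it stood at 1627, 1029.7 and 1130.4 in ripe Sd, against 91.5, 144 and 157 in PR Sd. All 6 ripe libraries lay above all 6 PR libraries (log2 fold change 3.20, SE 0.18, adjusted p = 1.22e-05). The rise was of like size in the palms, at 3.13 in NSd and 3.27 in Sd on the log2 scale (difference -0.14, 95% confidence interval -0.94 to 0.67). BURP domain-containing protein 6 (LOC105048270) had 402, 321 and 347 rescaled RPKM in ripe NSd against 62.2, 36.6 and 34.6 in PR NSd, and 629, 376 and 417 in ripe Sd against 38.4, 50.9 and 62.9 in PR Sd (log2 fold change 3.11, SE 0.18, adjusted p = 1.22e-05). A second locus of that name (LOC105042312) had 438, 393 and 387 rescaled RPKM in ripe NSd against 74, 40.4 and 33.3 in PR NSd, and 681, 391 and 406 in ripe Sd against 37.6, 60.8 and 74.4 in PR Sd (log2 fold change 3.09, SE 0.22, adjusted p = 3.52e-05). BURP domain-containing protein 3 (LOC105037817) had 441, 404 and 446 rescaled RPKM in ripe NSd against 73.8, 41.2 and 44.3 in PR NSd, and 737, 424 and 492 in ripe Sd against 48.1, 75.5 and 77.6 in PR Sd (log2 fold change 3.03, SE 0.18, adjusted p = 1.22e-05). In each of these 4 loci the lowest ripe library was above every PR library of either palm, and ripe Sd replicate 1 was the highest library.

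The family was picked out after its values were seen. It had 12 loci tested, of which 8 rose and none fell, against 0.507% of all loci that rose, and 7 of the 8 were shared. The 3 other shared members are described as BURP domain-containing protein 6 or 6-like. LOC105037616 had 87.2 to 162 rescaled RPKM in the ripe libraries, against 17.9 to 35.9 in the PR libraries (log2 fold change 2.07, SE 0.18, adjusted p = 0.000143). LOC105061550 had 8.99 to 23.3 rescaled RPKM in the ripe libraries, against 0.599 to 1.96 in the PR libraries (log2 fold change 2.48, SE 0.17, adjusted p = 3.52e-05), and LOC105048269 had 8.95 to 26.2 rescaled RPKM in the ripe libraries, against 1.24 to 2.77 in the PR libraries (log2 fold change 2.39, SE 0.18, adjusted p = 4.63e-05). LOC105048271 was called on average but changed by 0.93 in Sd. The members that were not called had log2 fold changes of -0.15 (LOC105048272), 0.24 (LOC105047983), 0.28 (LOC105047113) and 0.37 (LOC105047509), so the rise did not extend to the whole family. Summed over the 12 loci the level was 2119 to 2603 rescaled RPKM in ripe NSd against 275 to 467 in PR NSd, and 2414 to 3980.4 in ripe Sd against 319.7 to 465 in PR Sd. Members of this family may share reads where their sequences are near identical, and whether the reads were split between them was not tested. The 7 shared members kept their call in all 12 fits without 1 library.

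Several proteins and enzymes of the cell wall rose in both palms. Extensin (LOC105037998), a structural wall glycoprotein, had 34, 20.9 and 18.9 rescaled RPKM in ripe NSd against 1.55, 0.247 and 1.19 in PR NSd, and 31.8, 19.2 and 18.6 in ripe Sd against 3.11, 2.92 and 3.53 in PR Sd (log2 fold change 3.09, SE 0.27, adjusted p = 0.000124). Ripe libraries of the palms overlapped and lay above every PR library, and the PR NSd libraries were the lowest. The 21 kDa protein LOC105041092 had 106, 48.2 and 36.1 rescaled RPKM in ripe NSd against 7.59, 4.72 and 11.6 in PR NSd, and 27.1, 67.3 and 36.3 in ripe Sd against 8.69, 4.69 and 1.64 in PR Sd (log2 fold change 2.87, SE 0.37, adjusted p = 0.00166). A polygalacturonase-like locus (LOC105056882), of the enzyme class that cuts pectin, had 112, 67.1 and 46.7 rescaled RPKM in ripe NSd against 6.6, 20.2 and 24.3 in PR NSd, and 79.4, 143 and 156 in ripe Sd against 35.6, 24.4 and 17.5 in PR Sd. It rose in both palms (log2 fold change 2.205, SE 0.32, adjusted p = 0.00355, 2.17 in NSd and 2.24 in Sd). The difference between the palms was -0.08, with a wide 95% confidence interval of -1.52 to 1.36. Within the palms it was called in NSd (adjusted p = 0.00412, in limma) but not in Sd (adjusted p = 0.0155). LOC105056882 lost its average call without ripe NSd replicate 2, or without PR Sd replicates 2 or 3 (adjusted p up to 0.0103). Its neighbour by number, LOC105056874, also had high fold changes of 2.02 in NSd and 2.40 in Sd and missed the threshold (adjusted p = 0.0192).

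Of 23 polygalacturonases tested, 2 rose and none fell, where 0.507% of all loci rose and 0.361% fell. The second, polygalacturonase At1g48100 (LOC105044951), changed by 1.62 in NSd and 0.83 in Sd. Of 43 pectate lyases and esterases 1 rose, pectin acetylesterase 8 (LOC105060829, 1.94 in NSd and 0.70 in Sd), and none fell. At an unadjusted p under 0.05, 12 of the 43 rose and none fell, where 23.8% of all loci passed in either direction. This is a description with no test of the list, and nothing is read from it. No xyloglucan endotransglucosylase of 27 was called, though at an unadjusted p under 0.05 in limma 4 of them rose and 10 fell. Among 28 galactosidases and other wall glycosidases 3 rose and none fell, and 2 of them were alpha-galactosidases, which take galactose from the ends of sugar chains. LOC105035858 had 21.8, 18.1 and 17.2 rescaled RPKM in ripe NSd against 0.734, 1.09 and 1.43 in PR NSd, and 32.8, 25.7 and 31 in ripe Sd against 13.7, 9.32 and 12.1 in PR Sd (log2 fold change 2.28, SE 0.31, adjusted p = 0.00253), and LOC105035979 had 27.5, 24.4 and 21 rescaled RPKM in ripe NSd against 1.37, 2.29 and 1.37 in PR NSd, and 23.4, 26.7 and 35 in ripe Sd against 12.9, 12 and 12.6 in PR Sd (log2 fold change 2.18, SE 0.34, adjusted p = 0.00452). In both, PR NSd was far below PR Sd, and the rise was larger in NSd than in Sd, with interaction adjusted p of 0.000197 and 0.00014. The call of LOC105035979 was lost without PR NSd replicates 1, 2 or 3, or without ripe NSd replicates 1, 2 or 3 (adjusted p up to 0.0148). The third, beta-xylosidase/alpha-L-arabinofuranosidase 2 (LOC105056534), lay just outside the limit in Sd.

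Of 30 expansins and endoglucanases, 1 rose and 1 fell, against 0.507% and 0.361% of all loci. Expansin-A11 (LOC105055127), of the proteins that loosen walls without cutting them, fell to 0.592, 0.868 and 1.44 rescaled RPKM in ripe NSd, against 8.46, 14 and 19.6 in PR NSd, and to 1.18, 1.1 and 0.685 in ripe Sd, against 3.42, 2.69 and 4.84 in PR Sd (log2 fold change -2.05, SE 0.31, adjusted p = 0.00413). Every ripe library was below every PR library, and the call was lost without PR NSd replicates 1 or 2, ripe NSd replicates 2 or 3, or without PR Sd replicate 3 (adjusted p up to 0.013). Endoglucanase 12 (LOC105051516) was low throughout, with 1.74 to 5.62 rescaled RPKM in the ripe libraries, against 0.538 to 0.91 in the PR libraries (log2 fold change 1.09, SE 0.18, adjusted p = 0.00639), and kept its call only without ripe NSd replicate 3. Fasciclin-like arabinogalactan protein 7 (LOC105050260), the single member called of 38 secondary wall loci, had 16.2, 12.6 and 11.4 rescaled RPKM in ripe NSd against 0.591, 0.815 and 0.888 in PR NSd, and 17, 9.58 and 6.65 in ripe Sd against 3.05, 2.68 and 7.04 in PR Sd. A ripe Sd library fell below the highest PR Sd library, so the groups overlapped in that palm, and the call (log2 fold change 2.11, SE 0.35, adjusted p = 0.0063) was lost without any 1 library other than ripe Sd replicate 2, ripe Sd replicate 3 and PR Sd replicate 3 (adjusted p up to 0.019).

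**Figure D3:**
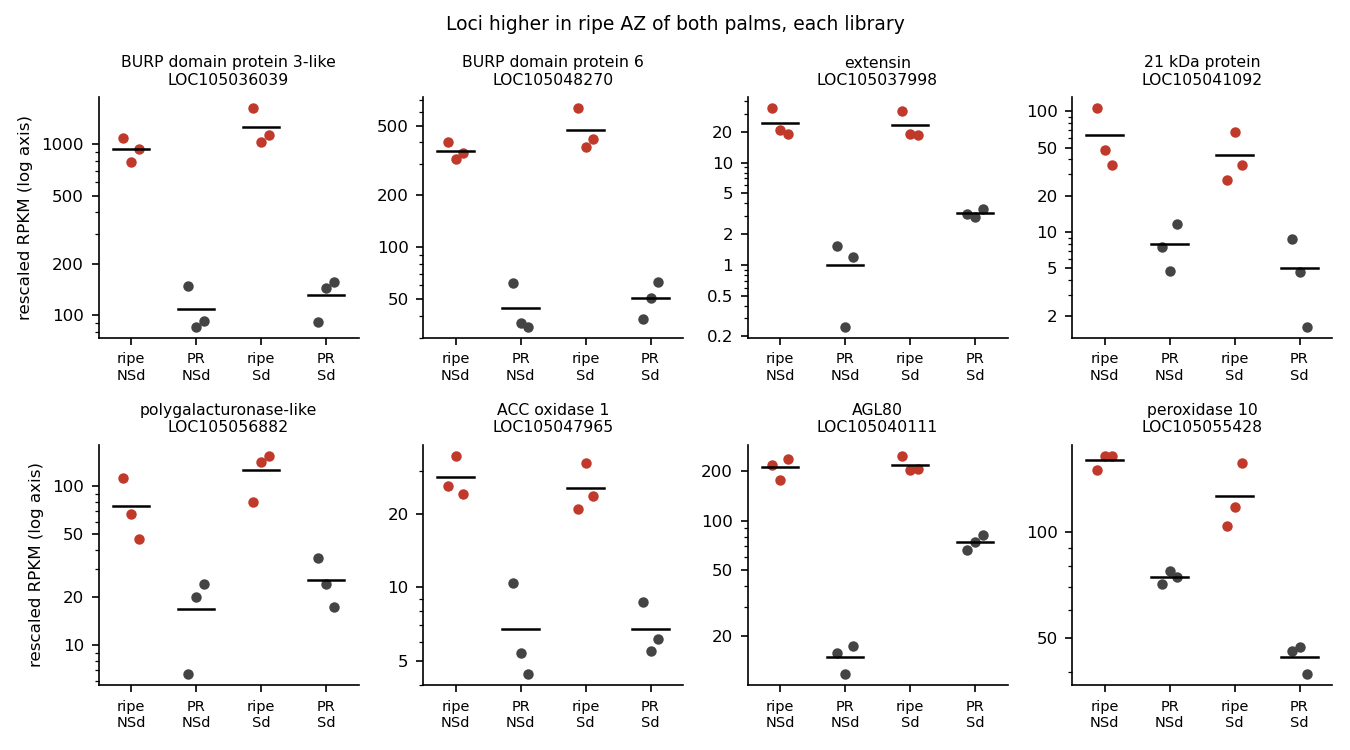
Rescaled RPKM in each library (dots, logarithmic axes) of 8 loci that were higher in ripe AZ of both palms, with ripe to the left of PR within each palm and black lines at the group means of 3 libraries. In LOC105036039 the 6 ripe libraries sit between 788 and 1627 and the 6 PR libraries between 85.3 and 157, while AGL80 had a like level in both ripe groups and a lower one in PR NSd than in PR Sd.

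Ethylene is made from ACC by ACC oxidase, and 1 of its loci rose alike in both palms. ACC oxidase 1 (1-aminocyclopropane-1-carboxylate oxidase 1, LOC105047965) had 25.9, 34.5 and 24.2 rescaled RPKM in ripe NSd against 10.4, 5.4 and 4.42 in PR NSd, and 20.9, 32.1 and 23.7 in ripe Sd against 8.73, 5.51 and 6.13 in PR Sd (log2 fold change 1.87, SE 0.19, adjusted p = 0.000439). All ripe libraries lay above all PR libraries, and the change did not pass the test of a difference between palms (0.21, 95% confidence interval -0.63 to 1.04). Of the 17 ACC synthase and ACC oxidase loci tested, some of which are described only as oxidase homologs, 2 rose and none fell. Over all loci 0.507% rose. The other was a second ACC oxidase 1 (LOC105040421, 1.70 in NSd and 0.79 in Sd, adjusted p = 0.00991). The more abundant ACC oxidases did not share a change. LOC105039092 had log2 fold changes of 0.00 in NSd and 0.15 in Sd, LOC105061033 of 2.27 and -1.41, and LOC105035107 of -3.79 and 1.07. None of 16 loci for ethylene receptors and signalling was called.

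Several cytokinin genes were lower in ripe tissue of both palms. Of 43 loci for cytokinin synthesis, breakdown and response, 6 fell and none rose, against 0.361% of all loci that fell. Of the 6, 3 were shared. The list as a whole moved little, with a median log2 fold change of -0.19 in NSd and -0.10 in Sd. ORR11 (LOC105049761) and ORR5 (LOC105058925) are two-component response regulators, proteins that act downstream of the cytokinin receptors. ORR11 had 6.65, 5.98 and 7.47 rescaled RPKM in ripe NSd against 22.7, 37 and 39.9 in PR NSd, and 6.02, 4.99 and 5.73 in ripe Sd against 12.4, 15 and 18.6 in PR Sd (log2 fold change -1.71, SE 0.18, adjusted p = 0.000664). ORR5 had 0.669, 0.816 and 0.807 rescaled RPKM in ripe NSd against 8.77, 10.2 and 4.26 in PR NSd, and 0.641, 0.438 and 0.164 in ripe Sd against 2.88, 3.73 and 1.94 in PR Sd (log2 fold change -1.84, SE 0.22, adjusted p = 0.00117). In both, all 6 ripe libraries were below all 6 PR libraries, and the PR NSd libraries were the highest. LOG1 (LOC105044305), a phosphoribohydrolase that releases active cytokinin from its nucleotide, had 2.43, 2.88 and 1.67 rescaled RPKM in ripe NSd against 53.6, 42.8 and 38.9 in PR NSd, and 1.8, 2.59 and 3.61 in ripe Sd against 7.44, 8.19 and 5.63 in PR Sd (log2 fold change -2.48, SE 0.41, adjusted p = 0.00642). It fell more in NSd than in Sd (interaction adjusted p = 0.000146), the ripe groups were alike and PR NSd stood far above PR Sd, and the call was lost without any 1 library other than ripe Sd replicate 2, ripe Sd replicate 3 and PR Sd replicate 3 (adjusted p up to 0.0193).

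The other 3 that fell were a second ORR11 (LOC105038536, -0.97 in NSd and -1.59 in Sd), ORR9 (LOC105052748, -1.73 and -0.81) and cytokinin dehydrogenase 6 (LOC105040417, -1.67 and -0.92), an enzyme of cytokinin breakdown. Of the 16 response regulators named ORR, a subset taken after values were seen, 4 fell (2 with RPKM as deposited), and 15 had an average below 0 (11 as deposited), with a median of -0.89, against a median near 0 over all loci. Within the palms, 10 of the 16 (62.5%) were below 0 in both, against 22.7% of all loci. The median was -1.10 in NSd and -0.08 in Sd. Summed over these 16 loci the level was 130.5 to 139 rescaled RPKM in ripe NSd against 262 to 477 in PR NSd, and 134 to 165 in ripe Sd against 201 to 207 in PR Sd. With RPKM as deposited 4 of the 43 cytokinin loci fell and none rose.

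Of 100 chitinases, beta-1,3-glucanases and pathogenesis-related proteins, 4 rose, all shared, and none fell, against 0.507% of all loci that rose. The list as a whole did not move one way in both palms, with a median log2 fold change of -0.08 in NSd and of 0.46 in Sd. In NSd on its own 14 were called higher and 12 lower, against 4.17% and 5.49% of all loci. Glucan endo-1,3-beta-glucosidase (LOC105045348), which cuts callose and related glucans, had 79, 34.6 and 31.2 rescaled RPKM in ripe NSd against 3.15, 2.42 and 3.35 in PR NSd, and 28.1, 31.4 and 42.2 in ripe Sd against 18.3, 7.06 and 4.62 in PR Sd (log2 fold change 2.68, SE 0.38, adjusted p = 0.00318). The acidic endochitinase LOC105036436, among the most abundant shared loci, had 1459, 1007 and 1207 rescaled RPKM in ripe NSd against 435, 388 and 709 in PR NSd, and 2002, 1698 and 1232 in ripe Sd against 1019, 613 and 640.3 in PR Sd (log2 fold change 1.21, SE 0.19, adjusted p = 0.0052). PR Sd replicate 1 lay above a ripe NSd library, but within each palm the groups did not overlap. A second acidic endochitinase (LOC105047536) had 95.4 to 180.3 rescaled RPKM in the ripe libraries, against 49.6 to 83.1 in the PR libraries (log2 fold change 1.21, SE 0.18, adjusted p = 0.00355). The pathogenesis-related protein PR-4 (LOC105042179) had 125, 60.8 and 26 rescaled RPKM in ripe NSd against 9.85, 7.96 and 25.7 in PR NSd, and 40.9, 67.2 and 26.9 in ripe Sd against 8.63, 4.83 and 3.44 in PR Sd (log2 fold change 2.44, SE 0.41, adjusted p = 0.00637). PR-4 was called in neither palm on its own (adjusted p = 0.0136 in NSd and 0.0147 in Sd, in limma), and its stages nearly met in NSd.

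The calls of the 2 endochitinases and of PR-4 were fragile. They were lost for LOC105036436 without any 1 library other than PR NSd replicate 3, ripe Sd replicate 3 and PR Sd replicate 1 (adjusted p up to 0.0154), for LOC105047536 without PR NSd replicates 1 or 2, ripe NSd replicate 2, or without PR Sd replicates 2 or 3 (adjusted p up to 0.0114) and for PR-4 without any 1 library other than ripe NSd replicate 3 and PR NSd replicate 3 (adjusted p up to 0.019). Hevamine-A-like LOC105047535, a chitinase by family that the list's words did not catch, was steadier, with 122 to 198 rescaled RPKM in the ripe libraries, against 45.1 to 89.4 in the PR libraries (log2 fold change 1.40, SE 0.17, adjusted p = 0.00117). It was called in all 12 fits without 1 library. It is 1 of 4 members that rose among 8 loci described as hevamine or acidic endochitinase, against 0.507% of all loci. Of the 4, 3 were shared. In NSd on its own 4 of the 8 were called higher, and in Sd 1. This grouping was made after values were seen.

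Among 41 class III peroxidases, secreted enzymes of wall oxidation, 4 rose and 1 fell, against 0.507% and 0.361% of all loci. Peroxidase 10 (LOC105055428) had 150.3, 164 and 165 rescaled RPKM in ripe NSd against 71.1, 77.4 and 74.6 in PR NSd, and 104, 118 and 157 in ripe Sd against 46.1, 47.2 and 39.5 in PR Sd (log2 fold change 1.28, SE 0.11, adjusted p = 0.000123), with narrow spread and no overlap between stages. Peroxidase 47 (LOC105034583) had 11.7 to 24.4 rescaled RPKM in the ripe libraries, against 3.54 to 8.08 in the PR libraries (log2 fold change 1.43, SE 0.21, adjusted p = 0.00361), and its call was lost without PR NSd replicate 2 or ripe NSd replicate 2 (adjusted p up to 0.012). Peroxidase 4 (LOC105044789) was low, with 1.48 to 3.86 rescaled RPKM in the ripe libraries, against 0.0512 to 0.697 in the PR libraries (log2 fold change 1.31, SE 0.19, adjusted p = 0.0034), and its call was lost without PR Sd replicate 2 (adjusted p up to 0.0103). Peroxidase 17 (LOC105058444) fell, with 8.22 to 23.8 rescaled RPKM in the ripe libraries, against 37.6 to 77.4 in the PR libraries (log2 fold change -1.59, SE 0.25, adjusted p = 0.00452), and its call was lost without PR NSd replicates 1, 2 or 3, ripe NSd replicate 2, PR Sd replicate 3, or without ripe Sd replicate 3 (adjusted p up to 0.0144). At an unadjusted p under 0.05, 14 of the 41 rose and only peroxidase 17 fell, a description with no test of the list. Of all loci 23.8% passed that limit in either direction. None of 41 loci for catalase, superoxide dismutase and other scavenging enzymes was called.

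Transcription factors with a shared change were found in the MADS-box, MYB and ERF lists. The MADS-box factor AGL80 (LOC105040111) rose, with 218, 178 and 236 rescaled RPKM in ripe NSd against 15.8, 11.7 and 17.3 in PR NSd, and 249, 204 and 206 in ripe Sd against 66.1, 74.3 and 82.1 in PR Sd (log2 fold change 2.64, SE 0.34, adjusted p = 0.00172). Both ripe groups reached the same range, and PR NSd was far below PR Sd, so that the rise was 3.74 in NSd and 1.55 in Sd (interaction adjusted p = 9.02e-05). The dehydration-responsive element-binding protein 1G (LOC105043386), of the DREB family of stress regulators, had 152, 217 and 289.9 rescaled RPKM in ripe NSd against 949, 786 and 303 in PR NSd, and 52.1, 71.6 and 32.4 in ripe Sd against 226, 148 and 164 in PR Sd (log2 fold change -1.66, SE 0.29, adjusted p = 0.00802). Its groups did not overlap within a palm, by a narrow margin in NSd, and the call was lost without any 1 library other than PR NSd replicate 3 (adjusted p up to 0.0225). A myb-related protein (LOC105054112) had 1.5 to 5.61 rescaled RPKM in the ripe libraries, against 0.18 to 0.539 in the PR libraries (log2 fold change 1.28, SE 0.23, adjusted p = 0.00852). It was called in only 1 of the 12 fits without 1 library, the fit without ripe NSd replicate 1 (adjusted p up to 0.0228 in the others). RADIALIS-like 3 (LOC105056262), of a family of small MYB-like proteins, fell to 6.85, 10.5 and 17.6 rescaled RPKM in ripe NSd, against 41.4, 38 and 48.9 in PR NSd, and to 5.56, 4.73 and 5.27 in ripe Sd, against 28, 24.4 and 29.4 in PR Sd (log2 fold change -2.03, SE 0.18, adjusted p = 0.000123). None of 71 WRKY, 67 NAC, 90 bHLH and 74 homeobox loci was called, of 28 MADS-box loci 2 rose and none fell, of 82 MYB loci 2 rose and 1 fell, and of 102 ERF loci none rose and 1 fell. With 0.869% of all loci called, lists of these sizes hold few calls at the share over all loci, and nothing is read from the low counts.

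The remaining loci with the largest falls belonged to no common list. Glutaredoxin-C1 (LOC109505860), a small thiol oxidoreductase, had the largest average fall of the shared loci whose product is characterized, with 0.584, 0.804 and 1.05 rescaled RPKM in ripe NSd against 25.9, 19.98 and 18.8 in PR NSd, and 0.585, 2.11 and 1.87 in ripe Sd against 12.4, 11.3 and 15.2 in PR Sd (log2 fold change -3.08, SE 0.23, adjusted p = 4.34e-05). The highest ripe library stood far below the lowest PR library in each palm. The calcium-binding protein CML29 (LOC105042924), a calmodulin-like calcium sensor, had 51.8, 67.7 and 110.2 rescaled RPKM in ripe NSd against 407, 417 and 565 in PR NSd, and 43.3, 45.8 and 42.1 in ripe Sd against 145, 134 and 166 in PR Sd (log2 fold change -2.19, SE 0.21, adjusted p = 0.000225). It was the single member called of 80 calcium sensors. Flowering-promoting factor 1-like protein 1 (LOC105045276), of a family of small proteins named for their effect on flowering in other plants, had 4.37, 4.21 and 4.17 rescaled RPKM in ripe NSd against 23.4, 31.7 and 38.1 in PR NSd, and 1.71, 1.57 and 3.81 in ripe Sd against 15.2, 14 and 22.1 in PR Sd (log2 fold change -2.52, SE 0.18, adjusted p = 3.52e-05). Its fall was -2.58 in NSd and -2.47 in Sd (difference -0.12, 95% confidence interval -0.89 to 0.66). The second locus of that name (LOC105057497) had 1.6 to 3.82 rescaled RPKM in the ripe libraries, against 5.83 to 11.4 in the PR libraries (log2 fold change -1.44, SE 0.12, adjusted p = 7.83e-05). PHLOEM PROTEIN 2-LIKE A1 (LOC105059859), a lectin of phloem exudate by its name, had 12, 18.1 and 21.5 rescaled RPKM in ripe NSd against 79.9, 109 and 132 in PR NSd, and 10.9, 14.2 and 11.4 in ripe Sd against 49.4, 48.8 and 67.5 in PR Sd (log2 fold change -2.33, SE 0.17, adjusted p = 4.34e-05). In these 5 loci no ripe library reached the level of any PR library, and all kept their call without any 1 library.

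**Figure D4:**
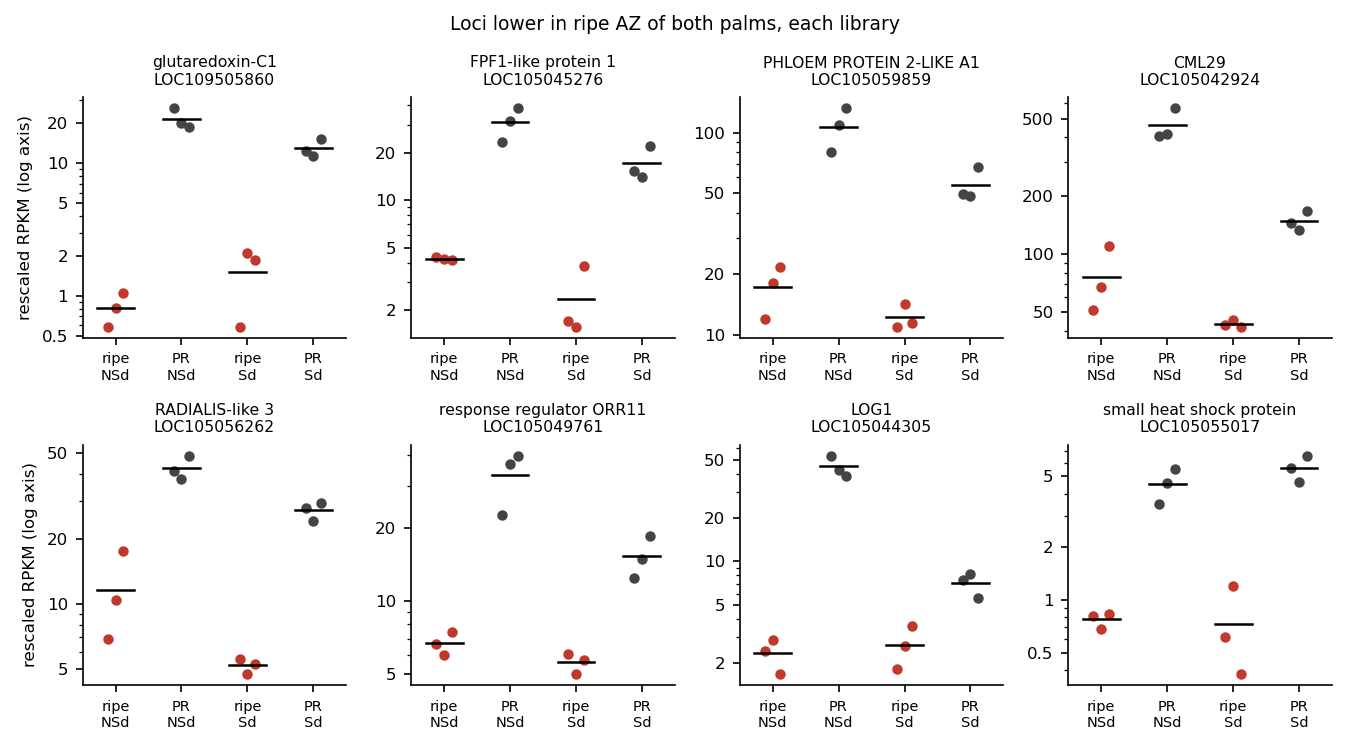
Rescaled RPKM in each library (dots, logarithmic axes) of 8 loci that were lower in ripe AZ of both palms, with ripe to the left of PR within each palm and black lines at the group means of 3 libraries. Ripe and PR libraries do not overlap in any panel. LOG1 stands at 38.9 to 53.6 in PR NSd but at 5.63 to 8.19 in PR Sd.

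Small heat shock proteins, chaperones that hold unfolded proteins, were lower in ripe tissue at most loci, though few passed the test. Of 82 heat shock loci, 3 fell and none rose, against 0.361% of all loci that fell. A small heat shock protein without a class in its name (LOC105055017) had 0.811, 0.688 and 0.831 rescaled RPKM in ripe NSd against 3.48, 4.59 and 5.54 in PR NSd, and 0.616, 1.2 and 0.38 in ripe Sd against 5.61, 4.65 and 6.57 in PR Sd (log2 fold change -1.79, SE 0.14, adjusted p = 6.67e-05). The 17.3 kDa class II protein (LOC105047941) had 3.05, 2.88 and 3.44 rescaled RPKM in ripe NSd against 18, 17.5 and 29.8 in PR NSd, and 3.32, 1.34 and 2.69 in ripe Sd against 7.55, 5.72 and 6.48 in PR Sd (log2 fold change -1.80, SE 0.25, adjusted p = 0.00252). The third, an 18.1 kDa class I protein (LOC105046300), changed by -1.66 in NSd and -0.55 in Sd. Of 16 small heat shock proteins, a subset taken after values were seen, 15 were below 0 in both palms (93.8%, against 22.7% of all loci), and 3 passed the test. Their summed level was 121 to 146 rescaled RPKM in ripe NSd against 304 to 411 in PR NSd, but 64.8 to 109 in ripe Sd against 104 to 135 in PR Sd, where the ranges overlapped.

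Other named loci were of mixed function. Of 26 aquaporins, 1 rose and 1 fell, against 0.507% and 0.361% of all loci. The aquaporin NIP5-1 (LOC105043497) had 3.97, 8.87 and 4.65 rescaled RPKM in ripe NSd against 1.29, 0.962 and 1.41 in PR NSd, and 8.93, 9.35 and 8.14 in ripe Sd against 2.81, 3.05 and 2.91 in PR Sd (log2 fold change 1.44, SE 0.15, adjusted p = 0.000532), while the aquaporin TIP1-2 (LOC105044478) had 4.46, 3.2 and 3.7 rescaled RPKM in ripe NSd against 9.81, 13 and 20.8 in PR NSd, and 8.77, 7.44 and 4.95 in ripe Sd against 14.2, 17.9 and 19.7 in PR Sd (log2 fold change -1.42, SE 0.19, adjusted p = 0.00199). Both kept their call without any 1 library. ATP-dependent phosphoenolpyruvate carboxykinase (LOC105054530), an enzyme of gluconeogenesis, had 17.4 to 44.2 rescaled RPKM in the ripe libraries, against 2.72 to 14.1 in the PR libraries (log2 fold change 1.85, SE 0.13, adjusted p = 3.52e-05). Non-symbiotic hemoglobin 1 (LOC105033708), an oxygen-binding protein, had 35.7, 28.4 and 50.3 rescaled RPKM in ripe NSd against 3.91, 2.56 and 3.18 in PR NSd, and 103, 109 and 90.2 in ripe Sd against 30.6, 21.7 and 41 in PR Sd (log2 fold change 2.45, SE 0.27, adjusted p = 0.000796). PR Sd libraries overlapped the ripe NSd libraries, but within each palm ripe and PR did not overlap. The WAT1-related protein At5g07050 (LOC105033348), of a transporter family, fell to 6, 11.2 and 15 rescaled RPKM in ripe NSd, against 24, 22.8 and 32.4 in PR NSd, and to 7.6, 10.3 and 7.51 in ripe Sd, against 37.4, 41.4 and 49 in PR Sd (log2 fold change -1.75, SE 0.23, adjusted p = 0.00177).

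The peptidyl-prolyl cis-trans isomerase LOC105044089, an enzyme of protein folding, fell to 3.33, 3.32 and 6.29 rescaled RPKM in ripe NSd, against 45.3, 53 and 68.8 in PR NSd, and to 8.53, 6.32 and 6.05 in ripe Sd, against 29.1, 23.9 and 31.2 in PR Sd (log2 fold change -2.66, SE 0.28, adjusted p = 0.000532). Inorganic pyrophosphatase 1 (LOC105040479) had 3.81, 8.1 and 10.6 rescaled RPKM in ripe NSd against 39.4, 55.6 and 55.2 in PR NSd, and 7.47, 8.47 and 7.17 in ripe Sd against 17, 16.3 and 22.1 in PR Sd (log2 fold change -1.91, SE 0.29, adjusted p = 0.00414), and its call was lost without PR NSd replicates 1, 2 or 3, ripe NSd replicate 2, or without PR Sd replicate 3 (adjusted p up to 0.0135). The vacuolar amino acid transporter YPQ1 (LOC105055832) had 0.186, 0.329 and 0.511 rescaled RPKM in ripe NSd against 24.8, 27.2 and 23.8 in PR NSd, and 0.404, 0.633 and 0.291 in ripe Sd against 2.66, 2.15 and 1.47 in PR Sd (log2 fold change -2.69, SE 0.48, adjusted p = 0.0087). Its fall was -4.30 in NSd and -1.09 in Sd, and its call was lost without any 1 library other than PR Sd replicate 3 (adjusted p up to 0.0239). The sugar transporter MST3 (LOC105032198), 1 of 42 sugar transport loci, had 7.9 to 19.7 rescaled RPKM in the ripe libraries, against 17.5 to 43.2 in the PR libraries (log2 fold change -1.16, SE 0.21, adjusted p = 0.00832). Its call was lost without any 1 library other than PR NSd replicate 1 (adjusted p up to 0.0222), and with RPKM as deposited.

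Smaller sets of shared loci completed the picture. Those of the cell wall and the cell surface that rose were alpha-1,3-arabinosyltransferase XAT3 (LOC105041137, 2.03), which adds arabinose to xylan, beta-glucosidase 12 (LOC105061258, 1.68), wall-associated receptor kinase 2-like (LOC105054851, 1.25), CO(2)-response secreted protease (LOC105053768, 2.13) and gibberellin-regulated protein 6 (LOC105056581, 1.48), of a family of small secreted peptides. Transporters that rose were NRT1/PTR family 6.4 (LOC105039132, 1.80), phosphate transporter PHO1-2 (LOC105055720, 1.37) and boron transporter 2 (LOC105044955, 1.11). Tubulin alpha chain (LOC105055911), of microtubules, had 4.44 to 8.48 rescaled RPKM in the ripe libraries, against 0.466 to 2.71 in the PR libraries (log2 fold change 1.52, SE 0.17, adjusted p = 0.00079), and ELF4-LIKE 4 (LOC105056447) rose by 1.83 on the log2 scale. Probable 1-deoxy-D-xylulose-5-phosphate synthase 2 (LOC105053930), of the plastid route to isoprenoids, had 0.978 to 4.46 rescaled RPKM in the ripe libraries, against 0.0498 to 0.601 in the PR libraries (log2 fold change 1.35, SE 0.24, adjusted p = 0.00905), a low level in every library. Its call was lost without any 1 library (adjusted p up to 0.0229). Short-chain dehydrogenase reductase 2a (LOC105051079, 1.98), DMR6-LIKE OXYGENASE 2 (LOC105059543, 2.16) and BAG family molecular chaperone regulator 1 (LOC105052985, 2.94), a co-chaperone family, also rose. Boron transporter 2 and PHO1-2 kept their call in only 1 of the 12 fits without 1 library, XAT3, NRT1/PTR family 6.4 and the BAG protein in 2, and beta-glucosidase 12 and the receptor kinase in 4.

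Among the smaller sets that fell, cytochrome P450 90B1 (LOC105058282), which in Arabidopsis is an enzyme of brassinosteroid synthesis, had 1.79, 4.05 and 5.83 rescaled RPKM in ripe NSd against 10.5, 5.04 and 10.8 in PR NSd, and 3.34, 4.45 and 2.46 in ripe Sd against 16.2, 13.5 and 13.9 in PR Sd (log2 fold change -1.43, SE 0.26, adjusted p = 0.00874). The NSd groups overlapped, and the call was kept in only 2 of the 12 fits without 1 library and lost with RPKM as deposited, upper quartile scaling, a pseudocount of 0.1 or no filter. The SNF1-related protein kinase regulatory subunit beta-1 (LOC105045502), of the kinase that senses energy state, was abundant, with 128, 205 and 168 rescaled RPKM in ripe NSd against 496, 311 and 305 in PR NSd, and 151, 158 and 138 in ripe Sd against 335, 380.4 and 305 in PR Sd (log2 fold change -1.16, SE 0.14, adjusted p = 0.00132). Its fall was nearly the same in both palms (-1.14 in NSd and -1.18 in Sd). It kept its call without any 1 library but lost it with RPKM as deposited. The senescence/dehydration-associated protein At4g35985 (LOC105047444) had 7.98 to 15 rescaled RPKM in the ripe libraries, against 22.7 to 39.1 in the PR libraries (log2 fold change -1.36, SE 0.15, adjusted p = 0.000796). LURP-one-related 5 (LOC105046046, -1.27) and 8 (LOC105046042, -1.25), jacalin-related lectin 19 (LOC105047632, -1.64), GDSL esterase/lipase At1g28570-like (LOC105038495, -1.36), DMP6 (LOC105032218, -1.31) and translocator protein homolog (LOC105052508, -1.46) fell as well. Of these, LURP-one-related 5, the GDSL esterase and DMP6 kept their call in only 2 of the 12 fits without 1 library and lost it with RPKM as deposited.

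Since 0.869% of all loci were called in either direction, a list without a call is no result about its members, and the following are given for completeness. No member was called in fatty acid synthesis (40 loci), oil assembly (32), carotenoid synthesis (18), photosynthesis (43), chlorophyll breakdown (11), starch and sucrose metabolism (60), jasmonate synthesis (21), the JAZ repressors of jasmonate (16), abscisic acid (27) and auxin (95). Ribosomal proteins (256 loci), histones (55) and the proteasome (75) had none either. In all, 24 of 46 gene lists had no member called. The JAZ loci had a median of -0.91 in NSd, where 8 were called lower and 1 higher, against 5.49% and 4.17% of all loci. In Sd their median was 1.02, with 2 called higher, against 0.722% of all loci. The difference of these medians was not tested. The photosynthesis list summed to 3632 to 4299 rescaled RPKM in ripe NSd against 768 to 933 in PR NSd, and 2419.7 to 3911 in ripe Sd against 3887 to 4156 in PR Sd. The sum of these green tissue markers thus differed by stage in NSd and overlapped in Sd. Most single loci moved less, with a median log2 fold change of 0.35 in NSd and -0.32 in Sd. In NSd on its own 6 of the 43 were called higher, against 4.17% of all loci, and none lower. The part of these loci in the changes was not tested. The fatty acid list, of mesocarp, summed to 3269 to 4303 in ripe NSd against 2910.4 to 3826 in PR NSd, and to 1587 to 2991 in ripe Sd against 3178 to 3287 in PR Sd. The AZ list matched only 8 loci, described as HSL1 or NPR5 types, and none was called.

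**Figure D5:**
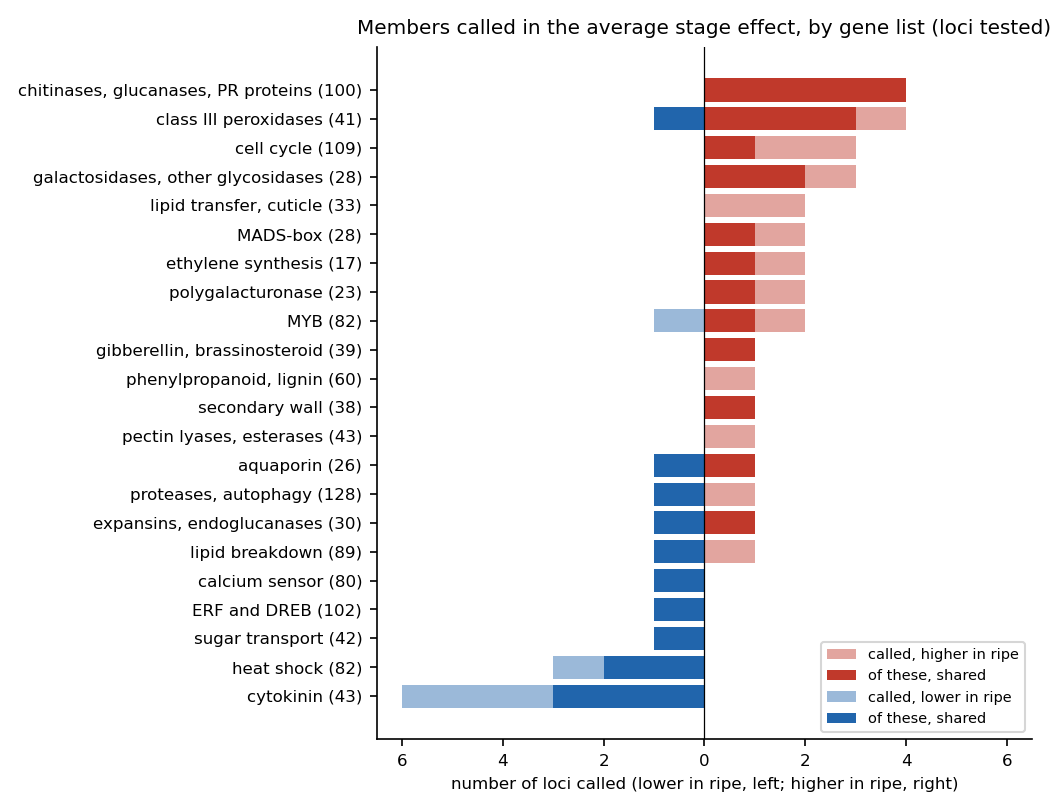
Number of loci called in the average stage effect in each of the 22 gene lists with a call, higher in ripe tissue to the right and lower to the left, with the number of loci tested in parentheses. Dark bars count the shared loci. The cytokinin list has 6 loci that fell and none that rose, and the list of chitinases, glucanases and PR proteins 4 that rose and none that fell. Over all loci tested, 0.507% rose and 0.361% fell.

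Among themselves, the shared loci differed in how evenly the palms took part. The change was larger in NSd at 77 of the 106, and the median log2 fold change was 2.09 in NSd and 1.42 in Sd for those that rose, and -1.82 and -1.31 for those that fell. Over all loci the median size of the change was 0.30 in NSd and 0.19 in Sd. Of the shared loci 52 were called in each palm on its own, 48 in NSd alone, 1 in Sd alone (cytochrome P450 90B1, LOC105058282) and 5 in neither. The interaction was called at 17 of the 106, and at 11.2% of all loci.

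The gap between the palms at each stage comes from the same 12 libraries as the rule and is given as a description. Among the shared loci that rose, 6 of 61 (9.84%) differed by more than 1 on the log2 scale between ripe NSd and ripe Sd, and 22 (36.1%) between PR NSd and PR Sd. Among those that fell it was 5 of 45 (11.1%) at the ripe stage and 16 (35.6%) at the PR stage. Over all loci it was 4.77% at the ripe and 12.9% at the PR stage, so that the larger PR gap was not particular to the shared loci, and the PR gap takes in the PR NSd libraries, which stood apart. The shared loci were more abundant than most, with a median highest group mean of 24.6 rescaled RPKM for those that rose and 31.1 for those that fell, against 10.5 over all loci, and 19.8% had an uncharacterized product, against 19.2% of all loci. As the rule chose for large changes in these same libraries, ripe and PR libraries did not overlap in either palm in 58 of the 61 that rose and 44 of the 45 that fell (3.4% and 3.41% of all loci), and all 6 ripe libraries were on the same side of all 6 PR libraries in 51 and 35 (1.7% and 1.56% of all loci). Nothing is read from these shares.

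Near the limit of the rule, the last loci inside by their smaller change in a palm were endoglucanase 12 and abscisic stress-ripening protein 5 (LOC105051990), which had 419.6 to 1066 rescaled RPKM in the ripe libraries, against 1104 to 2097 in the PR libraries and changed by -1.29 in NSd and just past the limit in Sd. Its call was lost without any 1 library other than ripe Sd replicate 3 and PR Sd replicate 3 (adjusted p up to 0.015) and with RPKM as deposited. Next came germin-like protein 2-1 (LOC105037799, 1.005 in Sd), the non-coding LOC114914510 (1.01) and the heavy metal-associated protein 32 (LOC105052729, 1.02). The germin-like protein was called in 5 and LOC114914510 in 1 of the 12 fits without 1 library. The first outside were beta-xylosidase/alpha-L-arabinofuranosidase 2 (LOC105056534, 2.54 in NSd and 0.999 in Sd), 3-ketoacyl-CoA synthase 11 (LOC105040213, 1.73 and 0.99), hevamine-A (LOC105036993, 1.61 and 0.99), alpha-mannosidase (LOC105044052, 1.83 and 0.99) and basic leucine zipper 43-like (LOC105049898, -1.21 and -0.99). These lay so close to the limit that the rule alone parts them.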

How the data were processed

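RNA was sequenced from the fruit-base AZ of a NSd and a Sd palm at the ripe and the PR stage, with 3 libraries per group. Stage and palm were taken from the sample labels, and the phenotype of each palm from the study. The authors trimmed single NovaSeq reads with bcl2fastq 2.20.0.422, aligned them with BWA to the E. guineensis transcriptome of NCBI, counted them with SAMtools, merged the transcripts of a locus and deposited RPKM per locus, reads scaled to the transcript's length and to the library's aligned reads, for 29040 loci. In each deposited file, 1 row named no locus and was left out. No replicates were pooled in the deposited files.

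Here each library's RPKM was divided by the median of its ratios to the geometric mean over libraries, 1 was added and log2 was taken. The 20495 loci that reached 1 RPKM in any library were fitted in limma 3.58.1 (R 4.3.3, trend) with palm and stage as terms. The change within each palm and the difference between palms (interaction) came from a fit with 1 mean per group. P-values were adjusted by the Benjamini-Hochberg method over all loci tested, and a call took an adjusted p below 0.01 and a change of more than 1 on the log2 scale. Numbers of aligned reads were recovered from the steps of the RPKM values. The fit was tested on simulated data with equal stage changes in both palms and no palm difference. That test does not cover loci whose change differs between the palms. With no genome or annotation used here, names are those of the files, and no positions are given.

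Named loci were the 12 highest and 12 lowest shared loci with at least 20 rescaled RPKM in a group, a characterized product and no overlap of stages within a palm, up to 3 shared loci of each of 46 gene lists by smallest p, 5 on each side of the limit, and 8 called loci with the largest interaction. Other loci and the families so described in the text were chosen after their values were seen. The members, lists and rules were all chosen with earlier results of these data known. The pattern of the list of late embryogenesis proteins was corrected once the files were open, because it also took phloem proteins. Alternatives were other scalings (RPKM as deposited, upper quartile), a pseudocount of 0.1, other filters, models and thresholds, each library left out, the PR NSd libraries left out and, added after seeing the data, the ribosomal RNA loci left out.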

Additional observations from a re-analysis of the deposited data

Results flagged for a closer look

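Of the loci named by rule, 15 changed by unequal amounts in the palms. In each, the difference between the palms' changes, NSd minus Sd, passed the interaction test in limma over all loci, in the same direction of change in both palms. The change of 9 of them was a rise and that of 6 a fall, and each was larger in NSd. Interaction was called for 11.2% of all loci tested. The 8 loci with the largest interaction were chosen for it, so that their differences are descriptions.

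Among those that rose, agamous-like MADS-box protein AGL80 (LOC105040111) changed by 3.74 in NSd and 1.55 in Sd, a difference of 2.18 (SE 0.22, adjusted p = 9.02e-05). Non-symbiotic hemoglobin 1 (LOC105033708) changed by 3.19 in NSd and 1.70 in Sd, a difference of 1.49 (SE 0.33, adjusted p = 0.00672). Alpha-galactosidase (LOC105035858) changed by 3.27 in NSd and 1.29 in Sd, a difference of 1.99 (SE 0.23, adjusted p = 0.000197). Alpha-galactosidase 1 (LOC105035979) changed by 3.25 in NSd and 1.10 in Sd, a difference of 2.15 (SE 0.24, adjusted p = 0.00014). Beta-xylosidase/alpha-L-arabinofuranosidase 2 (LOC105056534) changed by 2.54 in NSd and 1.00 in Sd, a difference of 1.54 (SE 0.36, adjusted p = 0.00888). Early nodulin-75 (LOC105059232) changed by 3.40 in NSd and 0.96 in Sd, a difference of 2.43 (SE 0.30, adjusted p = 0.000238). Heavy metal-associated isoprenylated plant protein 43-like (LOC109505481) changed by 3.88 in NSd and 1.46 in Sd, a difference of 2.43 (SE 0.45, adjusted p = 0.00255). Naringenin,2-oxoglutarate 3-dioxygenase (LOC105059410) changed by 3.26 in NSd and 0.87 in Sd, a difference of 2.39 (SE 0.29, adjusted p = 0.000226). The uncharacterized locus LOC105040190 changed by 3.70 in NSd and 1.33 in Sd, a difference of 2.37 (SE 0.28, adjusted p = 0.000178).

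Among those that fell, probable vacuolar amino acid transporter YPQ1 (LOC105055832) changed by -4.30 in NSd and -1.09 in Sd, a difference of -3.21 (SE 0.23, adjusted p = 2.18e-05). Peptidyl-prolyl cis-trans isomerase (LOC105044089) changed by -3.44 in NSd and -1.87 in Sd, a difference of -1.57 (SE 0.31, adjusted p = 0.00363). Cytokinin riboside 5'-monophosphate phosphoribohydrolase LOG1 (LOC105044305) changed by -3.80 in NSd and -1.16 in Sd, a difference of -2.64 (SE 0.30, adjusted p = 0.000146). Expansin-A11 (LOC105055127) changed by -2.88 in NSd and -1.21 in Sd, a difference of -1.67 (SE 0.39, adjusted p = 0.00797). Uncharacterized protein C24B11.05 (LOC105040129) changed by -4.61 in NSd and -1.57 in Sd, a difference of -3.04 (SE 0.44, adjusted p = 0.000634). GEM-like protein 7 (LOC105053729) changed by -3.24 in NSd and -0.95 in Sd, a difference of -2.30 (SE 0.39, adjusted p = 0.00142). The part of the PR NSd libraries, which stood apart from the rest, in these differences was not tested.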

How the results depend on the processing

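No paired analysis was possible because the labels give no replicate number that is shared between groups. The average log2 fold changes of the named loci kept their direction in all 1380 combinations of locus and alternative, and 271 of these were no longer called. Counts moved most with the threshold and the model, and also with single libraries. Without 1 library, 46 to 88 loci were called higher and 43 to 62 lower on average (104 and 74 with all 12), 35 to 56 and 28 to 39 were shared (61 and 45), 1611 to 2029 changed in NSd (1980), 41 to 449 in Sd (243), 1713 to 2480 differed between the palms (2300), and 14 to 35 higher and 10 to 30 lower were called in each palm on its own (27 and 25). The changes in Sd were fewest without PR Sd replicate 2 (41) and most without PR Sd replicate 3 (449). With the interaction kept in the model the average effect called 252 higher and 165 lower, which takes the difference between the palms out of the residual spread. RPKM as deposited gave 47 lower. With a pseudocount of 0.1, which raises the fold changes of low loci, 104 higher and 74 lower were shared. With no filter, 144 loci changed in Sd. At an adjusted p under 0.05 and no limit on the fold change, 775 higher and 716 lower were called, and as many were shared by their sign, with 7059 called in NSd, 1753 in Sd, 5700 for the interaction, and 182 higher and 179 lower in each palm on its own. Leaving out the ribosomal RNA loci gave 105 higher and 76 lower. The cause of these changes was otherwise not tested. Loci near 1 RPKM rest on few reads, and a change in them may not have been detectable at this depth.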

Other observations

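Heavy metal-associated isoprenylated plant proteins, a large family of small metal-binding proteins, held shared loci in both directions. The family was picked out after its values were seen. Of 42 members tested, 4 rose and 2 fell, against 0.507% and 0.361% of all loci, and 3 and 2 of these were shared. Member 43-like (LOC109505481) had 22.1, 13.2 and 12 rescaled RPKM in ripe NSd against 0.00, 0.00 and 0.319 in PR NSd, and 25.8, 15.3 and 10.2 in ripe Sd against 7.3, 5.01 and 3.74 in PR Sd (log2 fold change 2.67, SE 0.42, adjusted p = 0.00485). It was called in 5 of the 12 fits without 1 library. Member 44-like (LOC105054379) fell, with 7.9 to 27.7 rescaled RPKM in the ripe libraries, against 20.3 to 79.3 in the PR libraries (log2 fold change -1.61, SE 0.19, adjusted p = 0.00106), and member 5 (LOC105045615) had 2.05 to 3.75 rescaled RPKM in the ripe libraries, against 7.25 to 15.3 in the PR libraries (log2 fold change -1.47, SE 0.17, adjusted p = 0.00114).

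Some loci with no characterized product changed as much as the named ones. LOC105052159 fell in both palms, with 4.49, 4.63 and 4.39 rescaled RPKM in ripe NSd against 55.6, 54.4 and 68.3 in PR NSd, and 2.98, 3.15 and 3.2 in ripe Sd against 15.3, 17.1 and 21.6 in PR Sd (log2 fold change -2.82, SE 0.21, adjusted p = 3.52e-05). LOC105057642, among the most abundant of those that fell, had 38.8 to 80.8 rescaled RPKM in the ripe libraries, against 138 to 244 in the PR libraries (log2 fold change -1.74, SE 0.17, adjusted p = 0.000291). LOC105060558 rose more in Sd (3.51) than in NSd (1.77) by its values, with 10.9 to 41 rescaled RPKM in the ripe libraries, against 1.31 to 8.08 in the PR libraries (log2 fold change 2.64, SE 0.39, adjusted p = 0.00355; interaction adjusted p = 0.0498). It was called in 9 of the 12 fits without 1 library.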
